A study of Homo sapiens with 8 samples.

Results

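The values below are ribosome footprint densities of 10 tubulin genes in HEK293T cells, an established line of human embryonic kidney origin with the large T antigen of SV40. With earlier results of these data known, the members were taken by gene symbol and not by a cut on any measured value. They were 4 alpha-tubulin genes (TUBA1A, TUBA1B, TUBA1C and TUBA4A), 5 beta-tubulin genes (TUBB, TUBB2A, TUBB2B, TUBB4B and TUBB6) and the gamma-tubulin gene TUBG1, out of 12235 genes listed in any library. Ribosome profiling sequences the mRNA fragments that ribosomes shield from nuclease, so the footprints on a coding sequence reflect how many ribosomes sat on it. Cells were kept in sufficient medium (Suff), which held methionine, histidine, leucine, arginine and cysteine at their usual DMEM levels, or overnight in the same medium without arginine (Arg-), leucine (Leu-) or methionine (Met-), all with dialysed serum. Each condition was profiled once after treatment of the cells with cycloheximide, a drug that arrests elongating ribosomes, and once without it. This gave 8 libraries in 2 series of 4, with 1 library per condition and no replicates, so no difference below was tested and no p-value is given.

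The unit is RPKM, that is, reads divided by coding length and by the total of coding reads in the library. Coding reads numbered 1302523 to 3139745 without cycloheximide and 538222 to 6434043 with it, and the Met- library with cycloheximide was the shallowest. No mRNA was listed below 64 reads in a library with cycloheximide or below 5 reads in one without. An unlisted mRNA is therefore given here as unlisted, not as absent. Values in brackets are 95% intervals, exact Poisson for a level and exact binomial for a ratio or share, and they cover counting error only: PCR reads without molecular identifiers are not independent molecules, and the spread between cultures is not in them. The series held no RNA sequencing, so fewer mRNA copies and fewer ribosomes per mRNA cannot be told apart, and each value is relative to all other coding reads of its library. Of the 5 markers fixed for this cell line, VIM, KRT18, KRT8, NEFL and NEFM were all listed in every library without cycloheximide, KRT8 at no more than 18.0 RPKM. With cycloheximide KRT8 was unlisted in all 4 libraries, KRT18 in Suff and Met-, and NEFL in Met-. The blood, hepatocyte and muscle markers were unlisted in all 8 libraries.

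Microtubules are polymers of alpha- and beta-tubulin dimers, and gamma-tubulin nucleates them within a ring complex at the centrosome. Mammalian cells carry several near-identical genes for alpha- and beta-tubulin, the isotypes, whose proteins differ mostly in the acidic tail at the end of the chain. Cells also adjust tubulin mRNA to the amount of free dimer: when free dimer is abundant, the factor TTC5 recognises the first residues of the nascent tubulin chain on the ribosome and the mRNA is degraded during its translation.

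The similarity of the genes decides which footprints could be counted, because the authors kept only reads that mapped to 1 place. The first 30 coding bases, shown because they encode the part of the nascent chain that autoregulation reads, were the same in TUBA1A, TUBA1B and TUBA1C. Capitals mark bases that differ from TUBA1B in the alpha genes and from TUBB in the beta genes. All sequences are read 5′ to 3′ from the Ensembl canonical transcript of each gene in GENCODE release 44 (GRCh38). Without cycloheximide TUBA1C was listed on another transcript, with 1560 coding bases against 1350 in the canonical one.
TUBA1A, TUBA1B and TUBA1C: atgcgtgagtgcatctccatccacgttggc
TUBA4A: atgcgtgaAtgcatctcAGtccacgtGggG
TUBB: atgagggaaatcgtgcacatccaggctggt
TUBB2A: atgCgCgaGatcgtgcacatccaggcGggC
TUBB2B: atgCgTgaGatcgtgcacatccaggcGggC
TUBB4B: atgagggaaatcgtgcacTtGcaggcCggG
TUBB6: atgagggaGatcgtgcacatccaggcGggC

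The last 30 coding bases of the beta genes, stop codon included, encode the end of the acidic tail and are shown because this is where the isotypes part. They were compared position by position back from the stop codon.
TUBB: ttcggtgaggaggccgaagaggaggcctaa
TUBB2A: GAGgAGgaggaggGcgaGgaCgaggcTtaa
TUBB2B: GAGgAGgaggaggGcgaGgaCgaggcGtaG
TUBB4B: GAGgAGgaggCTgAGgaGgaggTggcctaG
TUBB6: GAGgAtgaggaAgAGgaGATCgaTgGAtaG

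Against TUBB, the last 30 bases differed at 9 positions in TUBB2A, 10 in TUBB2B, 12 in TUBB4B and 15 in TUBB6. The first 30 bases of these genes differed at 3 to 5 positions. Over the whole coding sequence, TUBA1A and TUBA1B differed at 38 of 1356 bases and were 97.2% identical. TUBB2A and TUBB2B differed at 25 of 1338 bases and were 98.1% identical.

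To see how much of each gene a uniquely mapped footprint could come from, every 28-base window of the coding sequence was looked up in all other protein-coding genes. Of the windows of TUBA1B, 18.8% occurred in no other gene, against 26.0% for TUBA1A. For TUBA1C it was 36.1% in the transcript listed without cycloheximide and 25.9% in the shorter one listed with it. TUBA1B shared 62.5% of its windows with TUBA1A and 62.3% with TUBA1C. The alpha gene that stood apart was TUBA4A, at 79.4%.

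Among the beta genes, TUBB had 97.9% unique windows, TUBB6 88.0% and TUBB4B 77.7%. TUBB2A and TUBB2B had 23.0% each and shared the other 77.0% with one another. TUBG1 had 54.8%, and the rest lay in its close copy TUBG2. When pseudogene and other non-coding transcripts were searched as well, the unique share of TUBB was 39.1% and that of TUBA1B 12.0%. Which of these transcripts were in the alignment reference of the authors is not given in the sources used here, so levels are compared between isotypes both as deposited and per unique window. Windows shared only by transcripts of the same gene were counted as unique. Judged by single protein-coding transcript, the share was 0% for TUBA1A and TUBB6, 3.90% for TUBB and 77.7% for TUBB4B. The unique-window levels do not allow for that.

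**Figure D1:**
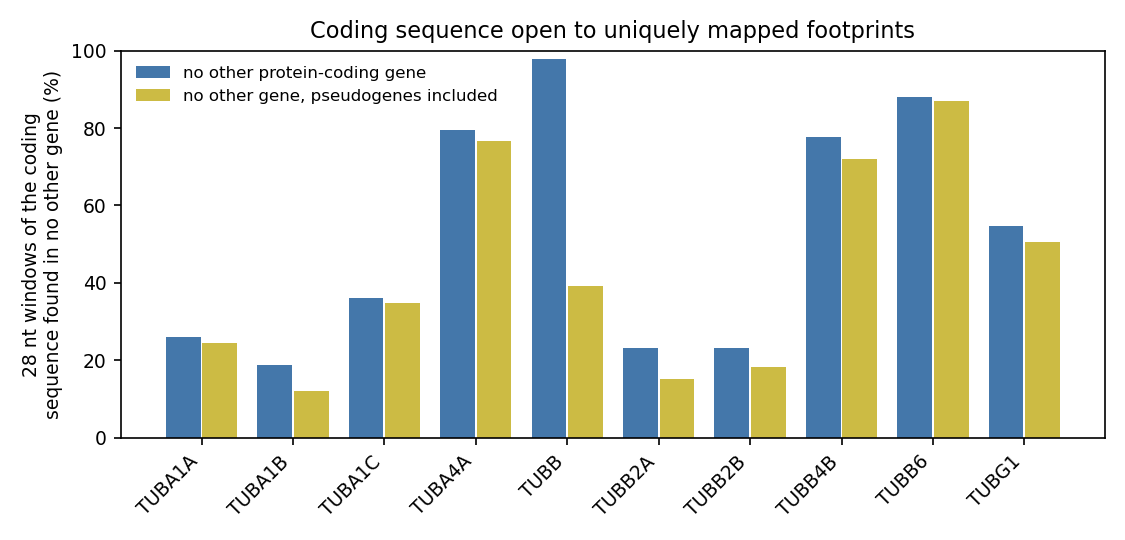
Share of 28-base windows of each member's coding sequence (vertical axis, %) that occur in no other protein-coding gene (blue) and in no other gene with pseudogenes included (yellow), for the transcripts listed without cycloheximide. TUBA1A, TUBA1B, TUBA1C, TUBB2A and TUBB2B stay below 40% on both counts, and TUBB drops from 97.9% to 39.1% once pseudogenes are counted.

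Without cycloheximide all 10 members were listed in every library. In sufficient medium TUBB (chr6:30717435-30725538, GRCh38), the general beta isotype of dividing cells, had the highest RPKM of the members at 1683 (1644 to 1722), above 98.6% of the mRNAs listed. TUBA1B (chr12:49127782-49131397) followed at 465 (445 to 486) and TUBB4B (chr9:137241287-137243707) at 432 (413 to 453), and these 2 intervals overlapped. The remaining members lay between 7.57 RPKM for TUBA4A and 109 RPKM for TUBG1.

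This order of levels depended on how much sequence could be counted. Per unique window among protein-coding genes, TUBA1B stood at 2474 and TUBB at 1719 RPKM in sufficient medium, which reversed them. With pseudogenes searched too, TUBB was at 4307 and TUBA1B at 3889. The order of the top alpha and the top beta isotype was thus not settled by these files.

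The same held for the sums. Summed alpha RPKM over summed beta RPKM was 0.268 in Suff, 0.267 in Arg-, 0.249 in Leu- and 0.200 in Met- as deposited. Per window unique among protein-coding genes the ratios were 1.09, 1.09, 1.03 and 0.743 in the same order. With pseudogenes included they were 0.802, 0.778, 0.738 and 0.618. The Met- library had the lowest ratio of the 4 on each of these 3 scales.

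**Figure D2:**
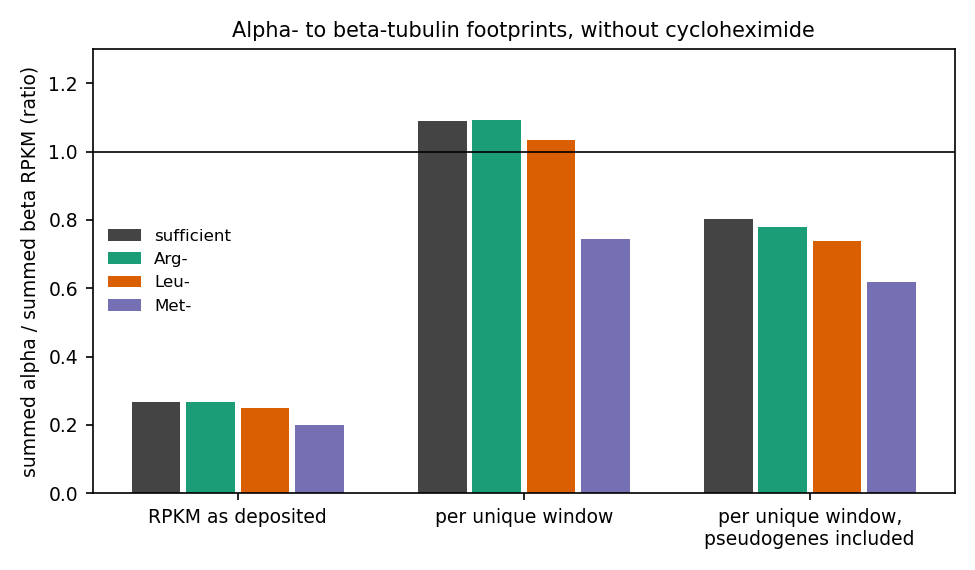
Ratio of summed alpha-tubulin to summed beta-tubulin RPKM (vertical axis) in the 4 libraries without cycloheximide, as deposited and per unique 28-base window without and with pseudogenes. The level of the ratio shifts with the scale, from 0.268 as deposited to 1.09 per unique window in sufficient medium, and Met- is lowest on each scale.

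In the series without cycloheximide the tubulin genes as a group had lower footprint densities in all 3 deficient media. Against sufficient medium, 9 of 10 members were lower in Arg-, 10 of 10 in Leu- and 10 of 10 in Met-. Of the mRNAs listed in both libraries on the same transcript and with whole read numbers, 45.6%, 35.0% and 30.8% were lower. These mRNAs numbered 10096 in Arg-, 10121 in Leu- and 10017 in Met-. The interval lay wholly below the sufficient value for 8 members in Arg-, 9 in Leu- and 8 in Met-, and above it for none. Among the mRNAs of that background the shares with an interval below the sufficient value were 21.2%, 12.2% and 14.8%, and an interval narrows as reads increase. The median log2 ratio of the 10 members, taken as log2((RPKM + 1)/(RPKM in Suff + 1)), was -0.85 in Arg-, -0.78 in Leu- and -0.77 in Met-. Over all mRNAs with a mean of at least 10 RPKM in the pair, it was -0.02, 0.14 and 0.31. Of these mRNAs, 9.40% in Arg-, 4.51% in Leu- and 9.04% in Met- lay below the tubulin median. These 3 comparisons share 1 sufficient library, so their agreement in direction is not independent.

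Counted at 2-fold, 3 of the 9 members above the minimum level were lower in Arg-, where 6.05% of all 7466 mRNAs were. In Leu- the number was 3 of 9, with 2.12% of all 7565 mRNAs, and in Met- it was 3 of 9, with 5.47% of all 7897 mRNAs. No member was 2-fold higher in any of the 3, where 8.33%, 6.89% and 20.2% of all mRNAs were. The member under the minimum was TUBA4A. The 3 genes past 2-fold were TUBA1C, TUBB2A and TUBB4B in Arg-, TUBB2A, TUBB6 and TUBG1 in Leu-, and TUBA1B, TUBA1C and TUBB in Met-.

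**Figure D3:**
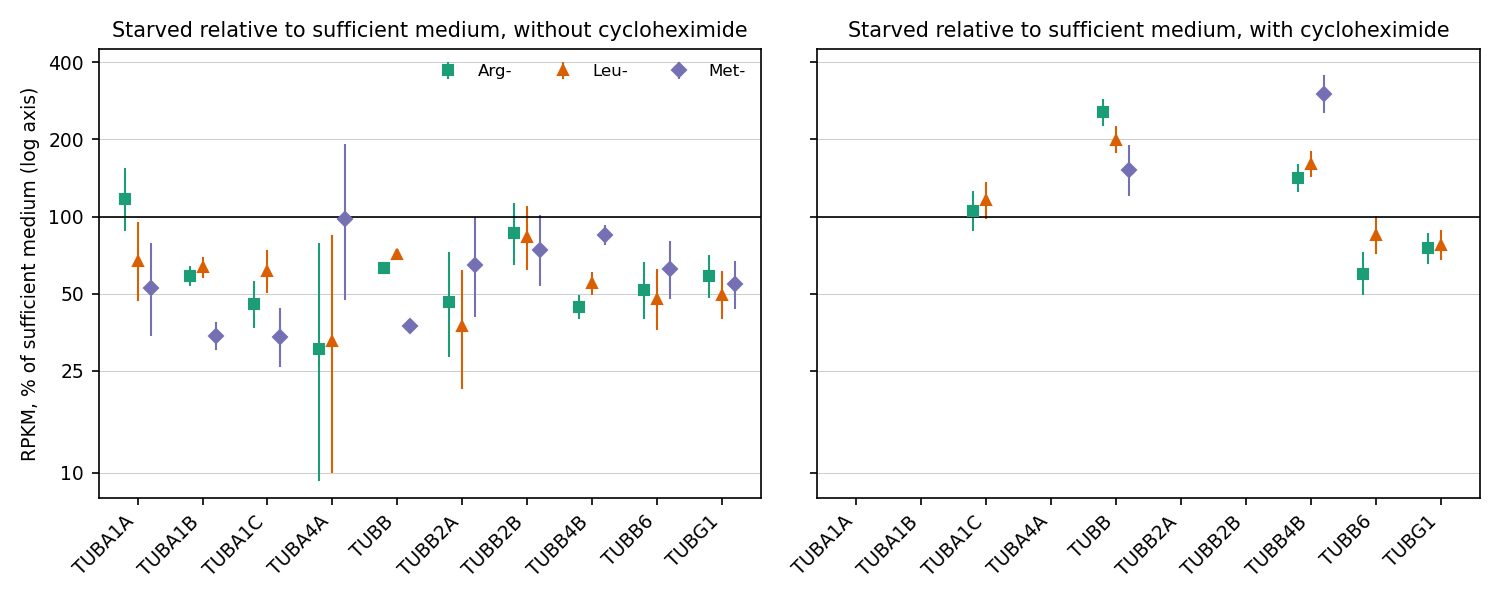
RPKM of each member in Arg-, Leu- and Met- as a percent of sufficient medium (vertical log axis; line at 100%) without cycloheximide (left) and with it (right), with 95% binomial counting intervals, for members listed in both libraries of a pair. On the left nearly all points lie below 100%. On the right TUBB and TUBB4B lie above it in all 3 deficient media, with the Met- cutoff close to their sufficient levels.

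TUBA1B, the main alpha isotype here, had 465 RPKM in Suff, 273 in Arg-, 295 in Leu- and 159.7 in Met-. Its density was 58.7% (53.5 to 64.4) of the sufficient value in Arg-, 63.3% (57.7 to 69.4) in Leu- and 34.3% (30.2 to 38.9) in Met-. Met- was thus the lowest of the 4, at 0.542 times the Leu- level (0.469 to 0.625).

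TUBA1C (chr12:49188736-49274600) had 97.2 RPKM in Suff, 44.2 in Arg-, 59.5 in Leu- and 33.0 in Met-. It followed TUBA1B in Met-, at 33.9% (25.9 to 43.9) of the sufficient value. TUBA1A (chr12:49184686-49189080), an isotype best known from the developing brain, was the one member above sufficient medium in any of these comparisons. It had 32.2 RPKM in Suff, 37.5 in Arg-, 21.7 in Leu- and 16.99 in Met-, from 137, 82, 44 and 30 reads. In Arg- its interval of 87.6% to 154.5% included no change. The annotated spans of TUBA1A and TUBA1C overlap at their ends on opposite strands.

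TUBA4A (chr2:219249710-219277902) was near the limit of these libraries. It had 7.57 RPKM in Suff, 2.30 in Arg-, 2.48 in Leu- and 7.41 in Met-, and these rest on 32, 5, 5 and 13 reads. The Met- value was 97.9% of the sufficient one with an interval of 47.2% to 191.8%, so neither a lower nor a higher level could be detected at this depth. Summed over the 4 alpha genes, density was 59.3% (54.4 to 63.9) of sufficient medium in Arg-, 62.8% (57.9 to 68.0) in Leu- and 36.0% (32.3 to 40.03) in Met-.

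TUBB had 1683 RPKM in Suff, 1065 in Arg-, 1202 in Leu- and 629.7 in Met-, from 1095 to 7053 reads. Relative to sufficient medium this was 63.3% (60.3 to 66.3) in Arg-, 71.4% (68.2 to 74.8) in Leu- and 37.4% (35.1 to 39.9) in Met-. The order was that of TUBA1B, with Leu- the highest and Met- the lowest of the deficient media. For TUBA1B the Leu- and Arg- levels did not separate, with a ratio of 1.08 (0.961 to 1.21), and for TUBB the ratio was 1.13 (1.07 to 1.20).

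TUBB4B, a beta isotype enriched in ciliated tissue but widely expressed, ran in another order. It had 432 RPKM in Suff, 192 in Arg-, 238 in Leu- and 367 in Met-. Met- kept it at 84.8% (77.4 to 92.9) of the sufficient level, while Arg- had it at 44.4% (39.8 to 49.5) and Leu- at 55.0% (49.6 to 60.9). The Met- level was 1.54 times that in Leu- (1.37 to 1.74) for TUBB4B and 0.524 times (0.487 to 0.563) for TUBB. The 2 intervals lay on opposite sides of 1.

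The make-up of the beta pool therefore also differed in Met-. TUBB4B took 19.2% (18.4 to 20.02) of the summed beta RPKM in Suff, 14.3% (13.1 to 15.7) in Arg-, 15.7% (14.4 to 17.01) in Leu- and 33.8% (31.6 to 35.9) in Met-. TUBB took 74.8%, 79.5%, 79.3% and 58.0% in the same order. The Met- interval of TUBB4B overlapped that of no other library. Per unique window with pseudogenes included the shares of TUBB4B were smaller, at 11.2%, 8.08%, 8.94% and 20.9%, in the same order of media. Duplicate reads had been removed in this series. Reads per window unique among protein-coding genes were 5.51 for TUBB and 1.78 for TUBB4B in Suff, and 0.855 and 0.628 in Met-. Whether duplicate removal affected the shares or ratios of the densest genes was not tested. In the alpha pool TUBA1B took 77.3% in Suff, 76.5% in Arg-, 77.9% in Leu- and 73.6% (69.0 to 77.8) in Met-, with overlapping intervals. The minor alpha shares varied more. TUBA1A took 10.5% (8.45 to 12.9) in Arg- against 5.34% (4.51 to 6.28) in Suff, and TUBA1C 12.4% (10.3 to 14.7) in Arg- against 16.1% (14.8 to 17.5) in Suff. TUBA4A took 3.41% (1.83 to 5.77) in Met-, from 13 reads, against 1.26% (0.861 to 1.77) in Suff.

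**Figure D4:**
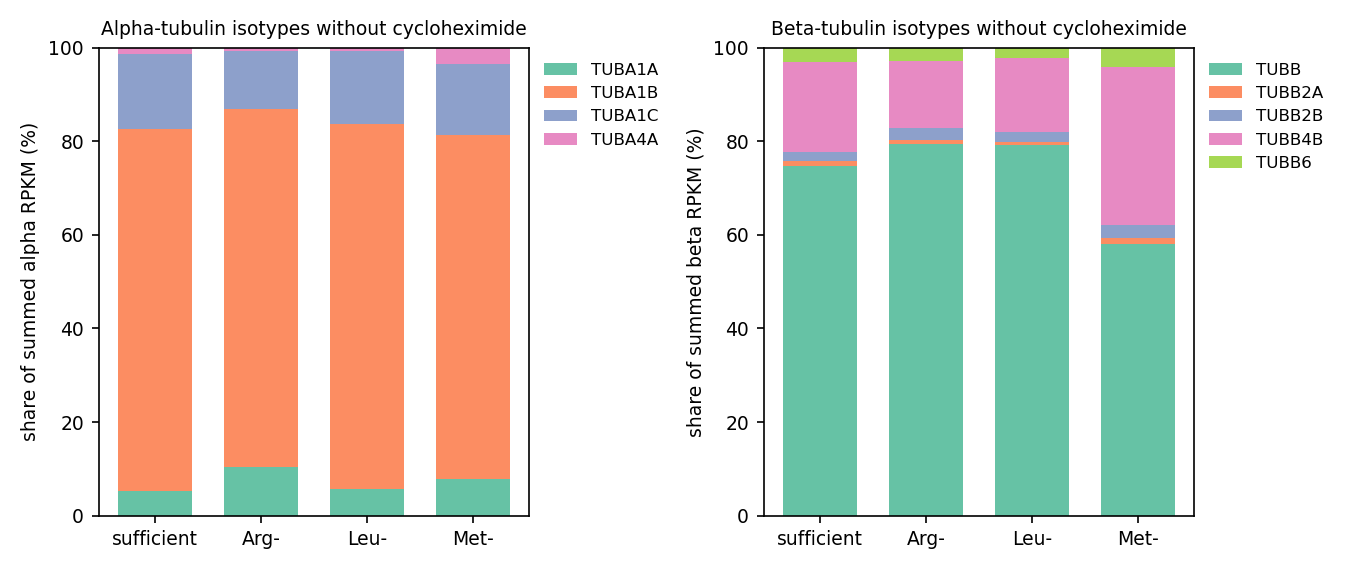
Share of each isotype in the summed alpha (left) and beta (right) RPKM (vertical axis, %) in the 4 libraries without cycloheximide, as deposited. In the beta pool TUBB4B takes 33.8% in Met- against 14.3% to 19.2% in the other 3 libraries, and the alpha pool is led by TUBA1B at 73.6% to 77.9%.

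TUBB6 (chr18:12307669-12344320) had 70.8 RPKM in Suff, 36.6 in Arg-, 33.9 in Leu- and 44.1 in Met-. It was lower than sufficient in all 3, and the 3 deficient media did not separate from each other. TUBB2A (chr6:3153497-3157544) had 24.0 RPKM in Suff, 11.1 in Arg-, 8.99 in Leu- and 15.5 in Met-. Its neighbour and near copy TUBB2B (chr6:3223324-3231730) had 40.9, 35.3, 34.0 and 30.4 RPKM in the same order.

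These 2 genes are linked to neuronal tissue and share most of their windows. TUBB2A was at 46.3% (28.4 to 72.9), 37.4% (21.3 to 62.1) and 64.4% (40.5 to 99.4) of sufficient medium in Arg-, Leu- and Met-. For TUBB2B, at 86.1%, 82.9% and 74.3%, each interval included 100%. Since each is read only from the 302 windows the other lacks, both values are uncertain beyond their counting error. Summed over the 5 beta genes, density was 59.5% (57.1 to 62.1) of sufficient medium in Arg-, 67.4% (64.6 to 70.2) in Leu- and 48.3% (45.9 to 50.7) in Met-. The alpha and beta intervals overlapped in Arg- and Leu-, and in Met- the alpha interval lay below the beta one.

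TUBG1 (chr17:42609641-42615238), which seeds microtubules and does not enter the dimer pool, had 109 RPKM in Suff, 64.1 in Arg-, 54.2 in Leu- and 59.4 in Met-. These were 58.6% (48.1 to 70.9), 49.5% (39.9 to 61.1) and 54.3% (43.5 to 67.3) of the sufficient value, and the 3 deficient media did not separate. TUBG2 stayed between 4.53 and 6.58 RPKM without cycloheximide.

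**Figure D5:**
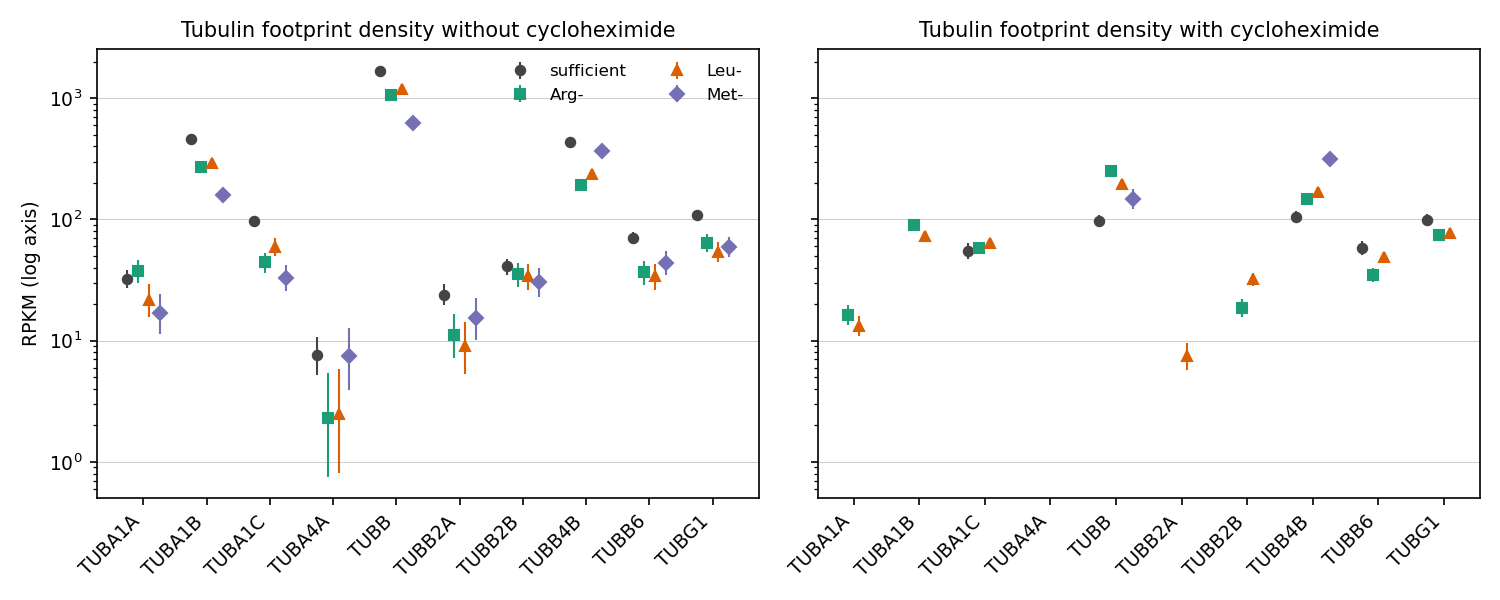
RPKM of each member (vertical log axis) in the libraries without cycloheximide (left) and with it (right), with 95% Poisson counting intervals; a missing point is an unlisted mRNA. On the left TUBB is highest in all 4 libraries and TUBB4B passes TUBA1B only in Met-; on the right TUBB and TUBB4B alone have a point for all 4 libraries.

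With cycloheximide the main isotypes had lower densities, and TUBB and TUBB4B lay on the other side of sufficient medium. TUBB and TUBB4B were the 2 members listed in all 4 libraries, and TUBA4A was listed in none. The 2 series were processed and scaled apart, and duplicate reads had been removed only without cycloheximide according to the records. The transcripts listed for TUBB, TUBA1A and TUBA1C also differ between the series. Levels are therefore set against each other only as values: in sufficient medium TUBB had 97.5 RPKM with cycloheximide against 1683 without, and TUBB4B 105 against 432, while TUBG1 had 99.6 against 109 and TUBB6 58.4 against 70.8.

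TUBB with cycloheximide had 97.5 RPKM in Suff, 249 in Arg-, 195 in Leu- and 148 in Met-. All 3 deficient libraries were above sufficient medium, at 255.2% (226 to 289), 199.6% (177 to 226) and 152% (120.5 to 191). TUBB4B had 105, 148, 169 and 317 RPKM in the same order. It was at 141% (125 to 160), 161% (143 to 181) and 302% (254.8 to 358) of sufficient medium. In Met- the cutoff equals 93.0 RPKM for TUBB and 89.1 for TUBB4B, near their sufficient levels. A value clearly below sufficient medium could therefore not have been listed there.

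Within the deficient media, the order of both genes under cycloheximide matched the one without it at the Met- end. TUBB4B in Met- was 1.88 times (1.63 to 2.16) its Leu- level and TUBB 0.762 times (0.618 to 0.931). TUBB4B took 68.2% (62.8 to 73.2) of the summed beta RPKM listed in Met-, against 40.3% in Suff, 32.9% in Arg- and 37.3% in Leu-. Per unique window with pseudogenes included, the shares were 53.5%, 31.4%, 20.8% and 23.0% in the same order. The Met- share is raised by the cutoff to an unknown degree, because in this shallow library 64 reads on a coding sequence of this length equal about 88 RPKM and the other beta genes were unlisted.

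The other members listed in Suff with cycloheximide did not share that direction. TUBG1 had 99.6 RPKM in Suff, 74.8 in Arg- and 77.1 in Leu-, or 75.1% (65.4 to 86.4) and 77.4% (67.9 to 88.4) of sufficient medium. TUBB6 had 58.4, 34.9 and 49.5 RPKM, at 59.8% (49.3 to 72.6) in Arg- and 84.8% (71.5 to 100.8) in Leu-. TUBA1C had 55.1, 57.8 and 63.7 RPKM, and both intervals included no change. All 3 genes were unlisted in Met-. For TUBG1 the cutoff there, 87.9 RPKM, is 1.13-fold below its sufficient level, whose interval is 89.4 to 110.7. That fold leaves out counting error, so no direction is drawn from it. For TUBA1C and TUBB6 the cutoff lies above their sufficient level and gives no direction.

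TUBA1B was unlisted in Suff with cycloheximide, where the cutoff equals 18.5 RPKM, and had 90.4 RPKM in Arg- and 73.3 in Leu-. This is at least 4.89-fold and 3.97-fold above that cutoff. It was unlisted in Met-. TUBB2B, unlisted in Suff, had 18.7 RPKM in Arg- and 32.1 in Leu-, the latter at least 1.72-fold above the cutoff. TUBA1A, at 16.4 and 13.3 RPKM in Arg- and Leu-, and TUBB2A, at 7.45 RPKM in Leu- from 64 reads, lay below the cutoff of the sufficient library, so no fold is given.

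With unlisted mRNAs taken as 0, 2 of 6 members above the minimum level were 2-fold higher in Arg- with cycloheximide, where 29.7% of all 6224 mRNAs were, and none was 2-fold lower, where 18.4% were. In Leu- 2 of 7 were higher, with 26.3% of all mRNAs, and none was lower, with 6.32%. In Met- 1 of 5 was higher, with 21.0%, and 3 were lower, with 61.9%. The 3 lower ones were the unlisted TUBA1C, TUBB6 and TUBG1. Among members listed in both libraries the numbers 2-fold higher were 1, 0 and 1. The shares of members that were higher lay near those of all mRNAs.

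Codons for the missing amino acids were not evenly spread over the family. Methionine codons made up 2.22% of the coding sequence of TUBA1B and 3.83% of that of TUBB, against a median of 2.12% over 11706 genes. TUBB4B had 4.04% and TUBB2A, TUBB2B and TUBB6 4.26% to 4.27%. TUBB and TUBB4B had 17 and 18 methionine codons. Whether codon content bears on the densities was not tested. Leucine took 7.10% in TUBA1B and 7.21% in TUBB, below the median of 9.74%, and arginine 4.66% and 4.95%, below the median of 5.61%. TUBG1 had 9.76% leucine and 6.43% arginine codons.

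Genes that handle tubulin were described from lists of the pathway, without cycloheximide unless stated. For Arg-, Leu- and Met- in that order, 8.33%, 6.89% and 20.2% of all mRNAs were 2-fold higher, 6.05%, 2.12% and 5.47% were 2-fold lower, and the medians of all mRNAs were -0.02, 0.14 and 0.31. Of the folding cofactors and autoregulation factors, 8 of 10 passed the minimum level, and their median log2 ratio was -0.16 in Arg-, 0.14 in Leu- and -0.16 in Met-. None was past 2-fold in Arg- or Leu-, and 1 was higher and 1 lower in Met-. The higher one was TBCC, a cofactor that releases the folded dimer, with 41.3 RPKM in Suff and 94.4 in Met-. The lower one was ARL2, the small GTPase of that step, with 140.0 RPKM in Suff and 38.7 in Met-, or 27.7% (18.0 to 41.0). With cycloheximide TBCC was unlisted in Suff and had 150.4 RPKM in Met-, and ARL2 had 444 RPKM in Suff and was unlisted in Met-.

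The medians of the gamma-tubulin ring complex genes, partners of TUBG1, lay near 0 without cycloheximide. Of 10 genes, 8 passed in Arg-, with a median log2 ratio of 0.00, 7 in Leu-, with 0.06, and 8 in Met-, with 0.03. In that series 1 was 2-fold higher in Arg-, against 8.33% of all mRNAs, 2 were in Met-, against 20.2%, and none was 2-fold lower. The log2 ratio of TUBG1 itself was -0.76, -1.001 and -0.87. With cycloheximide 2 of 7 ring complex genes were 2-fold lower in Arg-, against 18.4% of all mRNAs. They were MZT2A at 23.8% (20.2 to 27.9) and MZT2B at 20.9% (18.8 to 23.2) of sufficient medium, named because they are few. Without cycloheximide they were at 112.4% (92.7 to 136) and 100.3% (83.2 to 120.6) in Arg-. Their unique windows were not counted. With cycloheximide 1 of the 7, NEDD1, was 2-fold higher in Arg-, against 29.7% of all mRNAs, and it was unlisted in Suff. In Met- with cycloheximide 3 of 5 were 2-fold lower, against 61.9% of all mRNAs. Of these, MZT1 and MZT2A were unlisted and MZT2B was at 48.9%. There 1 of the 5 was 2-fold higher, against 21.0%.

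Among microtubule-associated and plus-end proteins no gene was 2-fold lower without cycloheximide. Of 16 genes, 13 passed in Arg- and Leu- and 14 in Met-. Those 2-fold higher numbered 2, 3 and 6, against 8.33%, 6.89% and 20.2% of all mRNAs. Their medians were -0.07, 0.35 and 0.56, against -0.02, 0.14 and 0.31. With cycloheximide 9, 7 and 6 genes passed. There 2, 0 and 1 were 2-fold lower, against 18.4%, 6.32% and 61.9% of all mRNAs. Those 2-fold higher numbered 4, 2 and 2, against 29.7%, 26.3% and 21.0%. TPX2, a spindle assembly factor, had 27.1 RPKM in Suff and 74.4 in Arg-, 81.8 in Leu- and 75.7 in Met-. With cycloheximide it was also higher, at 13.0 RPKM in Suff, 58.2 in Arg- and 37.4 in Leu-, and unlisted in Met-. MAP1S had 12.6 RPKM in Suff and 43.2 in Met- without cycloheximide, and 7.87 and 105 RPKM with it.

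Of 9 severing and depolymerising factors, 6 passed in Arg- and Leu- and 5 in Met-, with medians of 0.22, 0.70 and 0.70. Without cycloheximide the numbers 2-fold higher were 1, 2 and 2, against 8.33%, 6.89% and 20.2% of all mRNAs, and none was 2-fold lower, against 6.05%, 2.12% and 5.47%. With cycloheximide 3 of 5 passing genes were 2-fold higher in Arg-, against 29.7% of all mRNAs, and 1 of 3 in Leu-, against 26.3%. None was 2-fold lower in those media, against 18.4% and 6.32%. In Met- with cycloheximide 2 genes of the list passed. None was 2-fold higher, against 21.0%, and 1 was counted as 2-fold lower, against 61.9% of all mRNAs. It was KIF2A, which was unlisted in Met- and taken as 0. KIF2C, a depolymerising kinesin of the mitotic centromere, had 19.01 RPKM in Suff and 48.5 in Arg- without cycloheximide, and with it was unlisted in Suff and at 31.03 in Arg-. KATNA1, the severing subunit of katanin, had 29.3 RPKM in Suff and 63.4 in Leu-, and 18.0 and 56.0 with cycloheximide. The 14 tubulin-modifying enzymes had 10, 9 and 8 genes past the minimum, with medians of 0.14, 0.05 and 0.25. They held 2, 1 and 2 genes 2-fold higher, against 8.33%, 6.89% and 20.2% of all mRNAs, and 0, 0 and 1 lower, against 6.05%, 2.12% and 5.47%.

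Few of the 12 other tubulin genes passed, namely 2 in Arg- and 3 in Leu- and Met- without cycloheximide, and they are named because they are few. TUBE1, the epsilon-tubulin of centrioles, had 22.1 RPKM in Suff, 43.9 in Arg-, 30.9 in Leu- and 39.2 in Met-. TUBD1, the delta-tubulin, had 11.0, 7.75, 13.2 and 19.2 RPKM and missed the minimum in Arg-. TUBB4A, a beta isotype of the brain, had 32.0, 13.0, 17.5 and 23.0 RPKM. TUBE1 was thus on the other side of sufficient medium from the 10 members' median in all 3, at 198.9% (149 to 265), 139.8% (100.8 to 193) and 178% (129.5 to 243). ACTG1, the cytoplasmic gamma-actin gene and the one listed member of 2 actin genes taken for comparison, was lower like the tubulins. It had 3032 RPKM in Suff, 1495 in Arg-, 1582 in Leu- and 1423 in Met- without cycloheximide, and 791, 1052, 1088 and 788 with it.

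The genes whose 6 log2 ratios lay nearest to those of TUBB, by Euclidean distance among 1725 genes with at least 10 RPKM in all 8 libraries, were IMPDH2, PSMC3, CCT6A, EIF4A1 and CDC20. Their distances were 0.717, 0.725, 0.748, 0.787 and 0.827 on the log2 scale. TUBB itself had log2 ratios of 1.34, 0.99 and 0.60 with cycloheximide and -0.66, -0.48 and -1.42 without, in the order Arg-, Leu- and Met-. PSMC3 had 1.21, 1.19 and 1.10 with it and -0.47, -0.12 and -1.64 without. All 5 were above sufficient medium in each comparison with cycloheximide and below it in each without, as the choice by nearness favours. TUBA1B was not in this pool, as it was unlisted in 2 libraries.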

How the data were processed

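The authors trimmed adaptors, discarded reads outside a length range, trimmed low-quality bases, aligned to the human transcriptome (GRCh38; annotation release not given in the sources used here) by Bowtie, allowing no mismatch, and retained reads with 1 mapping place. The submitters' processing notes name cutadapt. The deposited unit is RPKM, with 1 value for each Ensembl transcript. From these, transcripts were matched to GENCODE release 44 (96.7% to 97.1% found per library), and the highest transcript per gene was used in each library. Whole reads were recovered from the steps of RPKM times coding length (tolerance 0.01 of a step); 97.2% to 97.4% of matched transcripts came out whole. They gave the intervals; no count test was run with 1 library per condition. Ratios use a pseudocount of 1, which understates changes of low mRNAs, and counts at 2-fold use a mean of at least 10 RPKM in the pair, unlisted mRNAs being 0. Unique windows are 28 bases long. Alternatives were a pseudocount of 0.1, a minimum of 50 RPKM or none, summed transcripts, 1 transcript per series, ratios centred on the median, unlisted mRNAs at the cutoff or left out, recovered reads and window scaling. The rule for names took all members, genes of the pathway lists past 2-fold in the same direction in both series, and the 5 nearest genes to the top alpha and beta member. The members and lists were chosen with earlier results of these data known. The scripts were tested on simulated data. Software: scipy 1.17.1, pandas 2.3.3 and numpy 2.4.6 under Python 3.11.15; figures by matplotlib 3.10.9.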

Additional observations from a re-analysis of the deposited data

Results flagged for a closer look

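TUBB and TUBB4B went opposite ways in the 2 series, each beyond its counting interval, in all 3 deficient media. In Met- with cycloheximide the cutoff equals 93.0 RPKM for TUBB and 89.1 for TUBB4B, near their sufficient levels. A clear fall could therefore not have been listed there. The difference between the series was not tested, since each condition has 1 library. For TUBB the log2 ratio against sufficient medium was 1.34 with cycloheximide and -0.66 without it in Arg-. It was 0.99 and -0.48 in Leu-, and 0.60 and -1.42 in Met-. For TUBB4B the values were 0.49 and -1.17 in Arg-, 0.68 and -0.86 in Leu-, and 1.59 and -0.24 in Met-. Within each series the 3 ratios share 1 sufficient library, and in the cycloheximide series that library listed TUBB at 97.5 RPKM against 1683 RPKM in the other. The part of these low sufficient levels, of duplicate removal and of the different TUBB transcript in the result was not tested. With cycloheximide 75.1%, 73.5% and 74.0% of all mRNAs at the minimum level had lower ratios than TUBB in Arg-, Leu- and Met-. For TUBB4B these shares were 61.7%, 65.9% and 85.7%. Without cycloheximide they were 15.2%, 11.4% and 1.98% for TUBB and 3.86%, 3.46% and 24.3% for TUBB4B. Unlisted mRNAs were taken as 0 in these shares.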

How the results depend on the processing

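No paired analysis was possible because each condition has 1 library and the labels carry no replicate numbers. Without cycloheximide all 30 member ratios and all 6 alpha and beta sums kept their direction under every alternative run. For the member ratios only centring could have changed a direction, because every member was listed on the same transcript in both libraries of a pair. Centring on medians of 0.14 in Leu- and 0.31 in Met- could only lower the ratios there. The kept directions of the members are therefore no support. Centring on the median, which is set by unlisted mRNAs in Met- with cycloheximide, moved 8 of the 12 sums. Without cycloheximide, centred alpha and beta log2 ratios were -0.81 and -0.71 in Leu- and -1.78 and -1.36 in Met-, where 5 members were then 2-fold lower. With cycloheximide they were 1.23 and 0.59 in Leu- and -0.97 and 5.67 in Met-, where 2 members were then 2-fold higher; a pseudocount of 0.1 put the unlisted alpha sum there at -9.11. With cycloheximide the counts 2-fold higher in Arg- were 1 with a minimum of 50 RPKM, 4 with none, and 1 with both libraries listed. In Leu- they were 0, 4 and 0, and 1 with unlisted mRNAs at the cutoff. In Met- the count 2-fold lower was 0 with a minimum of 50 RPKM, with unlisted mRNAs at the cutoff and with both listed. The shares of all mRNAs at these settings and after centring are not given here. These counts therefore show only how the number of members moved, not whether it departed from all mRNAs. With unlisted mRNAs at the cutoff, 16 of 22 ratios kept their direction, and TUBA1C and TUBB6 in Met- reversed to 0.67 and 0.60. TUBA1A in Arg- and Leu-, TUBB2B in Arg- and TUBB2A in Leu- lost their direction too. Their values lay below the cutoff of the sufficient library. Per unique window, and with pseudogenes included, TUBA1B shares of alpha were 86.0% and 90.3% in Suff, 84.4% and 89.0% in Arg-, 86.2% and 90.4% in Leu- and 83.6% and 88.5% in Met-. TUBB shares of beta were 65.2% and 80.2% in Suff, 68.9% and 82.6% in Arg-, 69.8% and 83.4% in Leu- and 47.1% and 66.1% in Met-. TUBB4B shares were 21.1% and 11.2% in Suff, 15.7% and 8.08% in Arg-, 17.4% and 8.94% in Leu-, and 20.9% in Met- with pseudogenes. The alpha to beta ratio per window, an alternative chosen after seeing the data, ranged from 1.02 to 1.17 in Suff and from 0.698 to 0.794 in Met- with windows of 25 to 31 bases. Depth limits TUBA4A, at 5 to 32 reads, and every unlisted member with cycloheximide.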
